A study of Mus musculus with 10 samples.

Results

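The genes described here encode the core of transforming growth factor beta (TGF-beta) signalling: the ligand gene Tgfb1, the receptor genes Tgfbr1 and Tgfbr2, the signal transducers Smad2, Smad3 and Smad4, the inhibitors Smad7, Ski and Skil, and the response gene Tgfbi. They were taken by name for their role in the pathway, and all 10 were found among the 28247 genes of the deposited table. The libraries were made from poly(A) RNA of wild-type (WT) mouse microglia in primary culture, the macrophages that live in the brain. All cultures were given oligomers of amyloid-β, the peptide that accumulates in Alzheimer's disease. They were also transfected with a synthetic mimic of the microRNA miR-378a-3p (5 libraries) or with a negative control mimic (5 libraries). The study asked what this microRNA does to microglia. Cells without amyloid-β or without transfection were not analysed here, so every difference is between the mimics in amyloid-treated cells. The dose of the mimic, the time of harvest and the age of the animals are not given in these sources, and no label states that the 5 libraries were separate cultures or animals. The p-values therefore measure the spread between these libraries, which may be technical.

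TGF-beta is secreted in a latent form and has to be released before it can bind. Released ligand binds the type II receptor TGFBR2, which recruits and phosphorylates the type I receptor TGFBR1, and this kinase phosphorylates SMAD2 and SMAD3. These join SMAD4 and regulate genes in the nucleus, among them the genes of their own inhibitors. In the mouse brain, microglia need TGF-beta to mature and to keep the gene expression of the resting state.

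Deposited counts summed to between 48707985 and 65069571 per library, and a read pair was worth about 4 of them. For 15916 genes the counts sufficed for edgeR's quasi-likelihood test, and a gene was called where its p, adjusted by Benjamini-Hochberg over all these genes, was under 0.05. Microglia and macrophage markers were abundant, with a summed level of 1290 to 1350 FPKM (fragments per kilobase of transcript, scaled to library size) in miR-378a-3p libraries and 1970 to 2230 FPKM in control libraries. Of these 16 markers 15 were called lower and 1, Cd68, higher (93.8% and 6.25%). Among all tested genes 31.5% were called lower and 31.7% higher. The resting-state markers P2ry12 and Tmem119 averaged 0.257 and 0.325 FPKM in miR-378a-3p libraries and 1.49 and 0.695 FPKM in control libraries. Markers of neurons, oligodendrocyte lineage cells, and fibroblasts and mural cells summed to at most 0.787 FPKM in every library. Endothelial markers summed to 3.86 to 4.47 FPKM in miR-378a-3p libraries and 10.1 to 11.1 FPKM in control libraries, nearly all of it Flt1, and astrocyte markers to 74.6 to 85.1 FPKM with miR-378a-3p and 92.8 to 107 FPKM with the control mimic, nearly all of it Aldoc, while the astrocyte marker Gfap had at most 12 counts in every library. Epithelial markers summed to 69.9 FPKM in miR-378a-3p replicate 1, led by Krt18 and Krt8, and to at most 1.73 FPKM in the other miR-378a-3p libraries and 0.661 FPKM in control libraries. The part of these markers in the results below was not tested, and a lower level in bulk RNA can come from fewer cells of a type or from less RNA per cell, which cannot be told apart.

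With miR-378a-3p, the ligand Tgfb1, the type I receptor Tgfbr1 and all 3 inhibitors rose, while the type II receptor Tgfbr2 fell. Smad3 was called slightly lower, and Smad2 and Smad4 did not pass the threshold. Of the 10 genes, 9 had enough counts to be tested and 7 of these were called, 5 higher and 2 lower. In these libraries 63.2% of all tested genes were called, 31.7% higher and 31.5% lower, so a call as such is common. With library totals in place of TMM scaling the counts over all genes moved to 5937 higher and 4225 lower, so the even split rests on the scaling. The FPKM values of the groups did not overlap for 5 genes that were higher and 1 that was lower, against 52.2% of all tested genes (31.4% higher and 20.8% lower). The size of the changes was moderate: 10.7% of all tested genes had an absolute log2 fold change as large as that of Skil, the largest of the list, 33.6% one as large as that of Smad7 and 40.9% one as large as that of Tgfb1. The 5 rises and the fall of Tgfbr2 were also called without miR-378a-3p replicate 1, with log2 fold changes between 0.40 and 1.25 for the rises and of -0.50 for Tgfbr2.

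**Figure D1:**
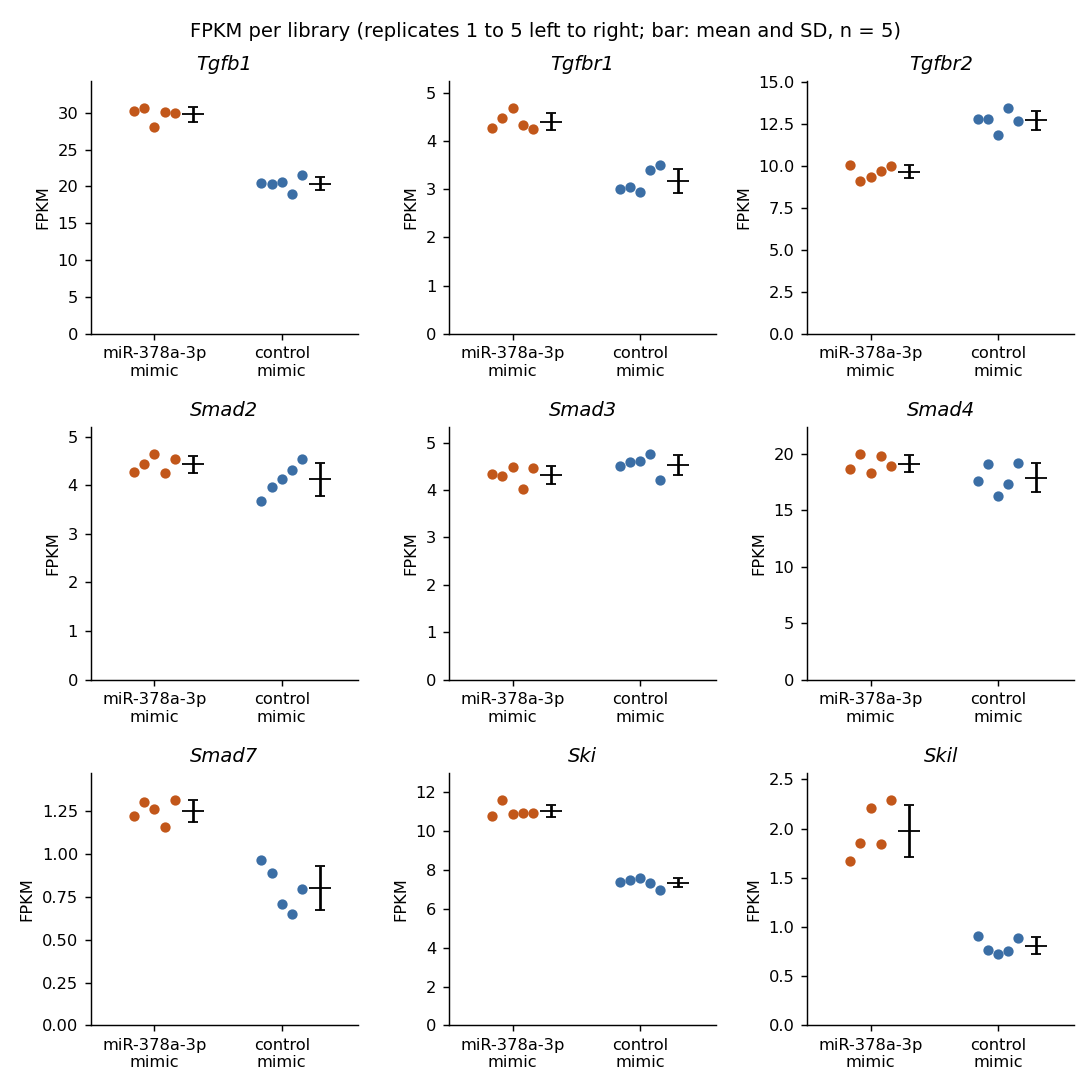
FPKM (vertical axes, starting at 0) of the 9 tested genes in each library of miR-378a-3p mimic cells (orange, left) and control mimic cells (blue, right), with the mean and SD of 5 libraries as a bar. The groups lie apart for Tgfb1, Tgfbr1, Tgfbr2, Smad7, Ski and Skil, and overlap for Smad2, Smad3 and Smad4.

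Tgfb1 (ENSMUSG00000002603, chromosome 7, 25687002 to 25705077 in the deposited coordinates), the ligand that microglia themselves make, was the most abundant of the genes per length in both groups. It was at 30.22, 30.62, 28.0, 30.14 and 29.91 FPKM in miR-378a-3p replicates 1 to 5, and at 20.47, 20.32, 20.59, 19.0 and 21.55 FPKM in control replicates 1 to 5. The lowest miR-378a-3p library, replicate 3, lay above the highest control library. Its mean was 29.8 ± 1.03 FPKM with miR-378a-3p and 20.4 ± 0.912 FPKM with the control mimic (SD, n = 5 each). The log2 fold change was 0.46 (SE 0.0351, edgeR adjusted p = 1.94e-08), a 1.37-fold rise. Tgfb2 and Tgfb3, the genes of the other TGF-beta ligands, were singled out after their values were seen and were at low levels. Tgfb2 averaged 0.0675 FPKM with miR-378a-3p and 0.0307 FPKM in control cells and did not pass (edgeR adjusted p = 0.189). Tgfb3 was at 0.3242 FPKM (71 counts) in miR-378a-3p replicate 1, the library with the epithelial markers. It was at 0 in the other miR-378a-3p libraries and at 0 to 0.04608 FPKM in control libraries, and was not tested.

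The receptor genes moved in opposite directions. Tgfbr1 (ENSMUSG00000007613, chromosome 4, 47353222 to 47414931), the type I receptor kinase that phosphorylates SMAD2 and SMAD3, was at 4.28, 4.47, 4.683, 4.336 and 4.256 FPKM in miR-378a-3p libraries and at 3.0, 3.036, 2.934, 3.389 and 3.493 FPKM in control libraries. All miR-378a-3p libraries were above all control libraries, and control replicates 4 and 5 were the highest of their group. Its mean was 4.40 ± 0.176 FPKM with miR-378a-3p and 3.17 ± 0.253 FPKM with the control mimic, and its log2 fold change was 0.39 (SE 0.0604, edgeR adjusted p = 4.38e-05). Tgfbr2 (ENSMUSG00000032440, chromosome 9, 116084293 to 116175360), the type II receptor that binds the ligand first, was at 10.08, 9.136, 9.368, 9.732 and 10.01 FPKM in miR-378a-3p libraries and at 12.82, 12.81, 11.85, 13.45 and 12.67 FPKM in control libraries. Every miR-378a-3p library was below every control library. Its mean was 9.67 ± 0.408 FPKM with miR-378a-3p and 12.7 ± 0.571 FPKM with the control mimic, and its log2 fold change was -0.49 (SE 0.0367, edgeR adjusted p = 1.6e-08).

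Since the receptors act as a complex, their ratio within a library was compared between the groups, which leaves out the scaling of the libraries. Per length, cells given miR-378a-3p had 0.456 Tgfbr1 for each Tgfbr2 and control cells 0.249. The difference of log2 FPKM, Tgfbr1 minus Tgfbr2, was -1.24, -1.03, -1.0, -1.17 and -1.23 in miR-378a-3p libraries and -2.1, -2.08, -2.01, -1.99 and -1.86 in control libraries. The groups differed by 0.87 in this value (two-sided exact permutation test, p = 0.00794, adjusted p = 0.0106 over 4 ratios, n = 5 each), and 0.00794 is the smallest p that these libraries can give. Each receptor gene already separated the groups, in opposite directions, so their ratio had to separate them too. This p was therefore fixed by the values above and is no further evidence. In every library Tgfbr2 stayed the more abundant receptor mRNA.

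The promoters of the receptor genes are shown because the genes moved in opposite directions. Windows of 300 bases, from 250 before to 50 after the annotated start, came from RefSeq on GRCm38.p6 at chr4:47352972-47353271 (plus strand) for Tgfbr1 and chr9:116175314-116175613 (minus strand) for Tgfbr2. These starts lie 0 and 3 bases from the gene ends in the deposited table. Capitals mark CAGAC, the core letters that SMAD3 and SMAD4 bind, or its reverse complement GTCTG.
Tgfbr1: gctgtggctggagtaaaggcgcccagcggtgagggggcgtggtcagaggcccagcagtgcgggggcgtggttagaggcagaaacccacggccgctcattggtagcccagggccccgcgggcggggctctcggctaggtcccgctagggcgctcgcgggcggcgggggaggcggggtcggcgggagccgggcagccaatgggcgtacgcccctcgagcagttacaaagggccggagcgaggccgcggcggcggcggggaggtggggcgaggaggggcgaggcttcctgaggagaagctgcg
Tgfbr2: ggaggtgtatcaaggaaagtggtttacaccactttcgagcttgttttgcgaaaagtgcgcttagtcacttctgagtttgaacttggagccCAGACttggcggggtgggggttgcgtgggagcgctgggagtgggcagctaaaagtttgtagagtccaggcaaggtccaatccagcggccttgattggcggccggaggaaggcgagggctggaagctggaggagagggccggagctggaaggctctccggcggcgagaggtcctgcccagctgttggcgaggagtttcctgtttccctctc
The Tgfbr1 window held no CAGAC on either strand, and the Tgfbr2 window held 1, beginning 160 bases before the start. A further Tgfbr1 window of RefSeq, 32994 bases inside the gene, held 1. In comparison, 49.6% of all 32851 promoter windows hold these letters, so their presence is common. Windows were found for 6 of the 10 genes. Those of Tgfb1, Ski and Smad3 held no CAGAC and that of Tgfbi 2. The SMAD palindrome GTCTAGAC (in 0.213% of all windows) and the AP-1 letters TGANTCA (in 7.81%) were in none of these windows. No motif overlapped another.

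**Figure D2:**
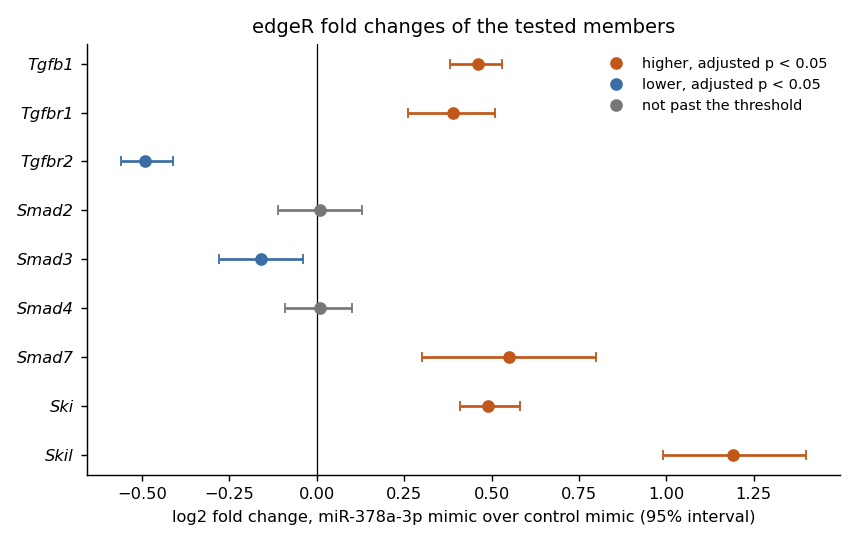
Log2 fold change of each tested gene, miR-378a-3p mimic over control mimic (horizontal axis), from edgeR, with its 95% interval as a bar. Tgfbr2 at -0.49 and Skil at 1.19 are the extremes, and the intervals of Smad2 and Smad4 span 0.

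The receptor-activated SMADs and their common partner changed little. Smad2 (ENSMUSG00000024563, chromosome 18, 76241580 to 76310963), a transducer phosphorylated by TGFBR1, was at 4.272, 4.43, 4.644, 4.243 and 4.546 FPKM in miR-378a-3p libraries and at 3.665, 3.954, 4.126, 4.315 and 4.53 FPKM in control libraries. The groups overlapped, and the log2 fold change was 0.01 (edgeR adjusted p = 0.833, 95% interval -0.11 to 0.13). Smad4 (ENSMUSG00000024515, chromosome 18, 73639009 to 73703780), which joins the phosphorylated SMADs, was the second most abundant of the genes. It was at 18.7, 20.01, 18.28, 19.83 and 18.98 FPKM in miR-378a-3p libraries and at 17.57, 19.12, 16.26, 17.38 and 19.23 FPKM in control libraries. These ranges overlapped, and the log2 fold change was 0.01 (edgeR adjusted p = 0.889, 95% interval -0.09 to 0.10). For both genes the interval does not reach a change as large as that of Tgfbr2, in either direction.

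Smad3 (ENSMUSG00000032402, chromosome 9, 63646767 to 63757994), a SMAD that binds DNA directly and is phosphorylated with SMAD2, was at 4.336, 4.285, 4.478, 4.022 and 4.455 FPKM in miR-378a-3p libraries and at 4.509, 4.582, 4.605, 4.761 and 4.203 FPKM in control libraries. The groups overlapped, with control replicate 5 below 4 of the 5 miR-378a-3p libraries. The change of -0.16 on the log2 scale (SE 0.0556, edgeR adjusted p = 0.0197) was called, but the call ended without miR-378a-3p replicate 4 (-0.14, adjusted p = 0.0543), with library totals in place of TMM scaling (-0.08, adjusted p = 0.198) and with limma on FPKM (-0.06, adjusted p = 0.253, with a pseudocount of 1). Smad2 minus Smad3 on the log2 FPKM scale averaged 0.04 with miR-378a-3p and -0.14 in control libraries (two-sided exact permutation test, p = 0.0476, also 0.0476 adjusted over 4 ratios). That difference of 0.18 no longer passed when any of miR-378a-3p replicates 2 to 5 or control replicates 1 to 4 was left out, with adjusted p up to 0.0952, nor with log2(FPKM + 1).

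The inhibitors rose. Smad7 (ENSMUSG00000025880, chromosome 18, 75367529 to 75395935), which blocks TGFBR1 and brings ubiquitin ligases to it and which TGF-beta itself induces, was at 1.219, 1.301, 1.263, 1.158 and 1.316 FPKM in miR-378a-3p libraries and at 0.9651, 0.8904, 0.7072, 0.651 and 0.797 FPKM in control libraries. All miR-378a-3p libraries were above the highest control library, replicate 1. The means were 1.25 ± 0.0642 FPKM with miR-378a-3p and 0.802 ± 0.129 FPKM with the control mimic. The log2 fold change was 0.55 (SE 0.116, edgeR adjusted p = 0.000664), and 0.32 with limma on log2(FPKM + 1), a scale that understates the change of low genes. Smad7 rested on 158 to 394 deposited counts per library, the fewest of the tested genes in the list.

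Ski (ENSMUSG00000029050, chromosome 4, 155154075 to 155222535), a co-repressor that holds SMAD complexes inactive on DNA, was at 10.79, 11.62, 10.88, 10.96 and 10.94 FPKM in miR-378a-3p libraries and at 7.401, 7.471, 7.581, 7.34 and 6.987 FPKM in control libraries. The groups lay far apart, with miR-378a-3p replicate 2 the highest. The log2 fold change was 0.49 (SE 0.0395, edgeR adjusted p = 3.05e-08). Skil (ENSMUSG00000027660, chromosome 3, 31095058 to 31122573), its paralog, which is degraded and then transcribed anew when TGF-beta acts on a cell, was at 1.675, 1.851, 2.206, 1.844 and 2.293 FPKM in miR-378a-3p libraries and at 0.9127, 0.7673, 0.7254, 0.7605 and 0.8855 FPKM in control libraries. Even the lowest miR-378a-3p library was well above the highest control library, though replicates 3 and 5 stood above the other 3. The means were 1.97 ± 0.263 FPKM with miR-378a-3p and 0.81 ± 0.0832 FPKM with the control mimic. The log2 fold change was 1.19 (SE 0.0958, edgeR adjusted p = 3.22e-08), a 2.29-fold rise, and 0.71 with limma on log2(FPKM + 1).

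The balance between the paralogs Ski and Skil, and that between the inhibitor Smad7 and the transducer Smad3, also differed within libraries. Ski minus Skil on the log2 FPKM scale averaged 2.49 with miR-378a-3p and 3.19 in control libraries, a difference of -0.69 (two-sided exact permutation test, p = 0.00794, adjusted p = 0.0106 over 4 ratios, n = 5 each). Ski was thus 5.63 times as abundant as Skil with miR-378a-3p, against 9.11 times in control cells, per length. Smad7 minus Smad3 averaged -1.79 ± 0.0471 with miR-378a-3p and -2.51 ± 0.266 in control libraries, a difference of 0.73 (two-sided exact permutation test, p = 0.00794, adjusted p = 0.0106, n = 5 each). With log2(FPKM + 1) the Ski to Skil difference was -0.19 and did not pass (adjusted p = 0.0556), and the Smad7 to Smad3 difference was 0.38 (adjusted p = 0.0159).

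**Figure D3:**
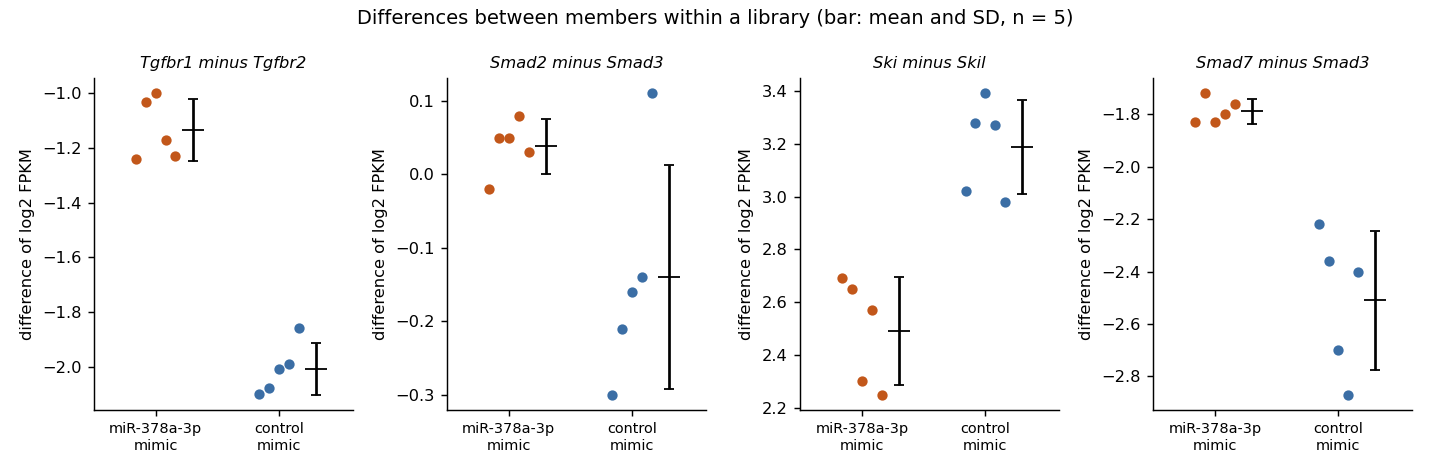
Difference of log2 FPKM between a pair of genes within each library of miR-378a-3p mimic cells (orange, left) and control mimic cells (blue, right), with the mean and SD of 5 libraries as a bar and axes that do not start at 0. The groups lie apart for Tgfbr1 minus Tgfbr2, Ski minus Skil and Smad7 minus Smad3, and overlap for Smad2 minus Smad3.

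Tgfbi (ENSMUSG00000035493, chromosome 13, 56609523 to 56639562), a secreted matrix protein named for its induction by TGF-beta, was hardly detected. It had 0 counts in all 5 miR-378a-3p libraries, and 12 and 11 counts, about 3 read pairs each, in control replicates 2 and 5, with 0 in the other 3 control libraries. It had too few counts to be tested, and no fold is given because both groups are at or below the floor of 12 counts per library, or 3 read pairs.

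The order of the mRNA levels per length changed with the mimic. With miR-378a-3p it ran Tgfb1, Smad4, Ski, Tgfbr2, then Smad2, Tgfbr1 and Smad3 with overlapping ranges of 4.02 to 4.68 FPKM, then Skil and Smad7. With the control mimic it ran Tgfb1 and Smad4 (overlapping), Tgfbr2, Ski, then Smad3 and Smad2 (overlapping), Tgfbr1, and Skil with Smad7 (overlapping). Ski therefore stood above Tgfbr2 in every miR-378a-3p library and below it in every control library. The spread between libraries of a group was 3.01% to 5.13% of the mean for 8 of the 9 tested genes with miR-378a-3p and 13.3% for Skil. In control libraries it was 3.06% to 8.06% for 7 of them, and larger for Skil (10.3%) and Smad7, whose control libraries ran from 0.651 to 0.9651 FPKM.

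The rest of the pathway was described with 7 lists, leaving out the 10 genes above. Of their 196 genes in the table, 161 were tested, and 63 were called higher and 56 lower with miR-378a-3p (39.1% and 34.8%, against 31.7% and 31.5% of all tested genes). Their median log2 fold change was 0.07, and that of all tested genes -0.002. Without miR-378a-3p replicate 1, 60 were higher and 58 lower, and with library totals 76 were higher and 54 lower. Up to 5 genes of each list are named, from those with the smallest p and a mean of at least 1 FPKM.

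Of the genes of ligands and their release 6 were higher and 6 lower of 17 tested (35.3% each), with a median log2 fold change of 0.14. Without miR-378a-3p replicate 1, a count added after the data had been seen, 5 were higher and 8 lower and the median was -0.27. Furin, a convertase that cleaves the TGF-beta precursor, fell to 10.5 ± 0.357 FPKM with miR-378a-3p, against 24.9 ± 1.97 FPKM in control cells (log2 fold change -1.34, edgeR adjusted p = 6.24e-12). Nrros, which tethers latent TGF-beta on microglia, fell to 37.6 ± 1.27 FPKM, against 53.2 ± 1.9 FPKM in control cells (log2 fold change -0.59). Itgav, the αV chain of the integrins that release latent TGF-beta, rose to 18.9 ± 1.07 FPKM, against 12.1 ± 0.727 FPKM in control cells (log2 fold change 0.55), and Itgb5, a β chain that pairs with it, rose by 0.19 on the log2 scale. Gdf15, a stress-induced distant relative of TGF-beta, had a log2 fold change of -2.35. Itgb8, the β chain through which αV releases TGF-beta in the brain, was named after the values were known. It averaged 0.00336 FPKM with miR-378a-3p and 0.00259 FPKM in control cells and was not tested.

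Among receptors and their partners 6 were higher and 7 lower of 19 tested (31.6% and 36.8%), with a median log2 fold change of 0.01. Dab2, an adaptor that links the TGF-beta receptors to SMADs and to endocytosis, fell to 21.6 ± 1.16 FPKM with miR-378a-3p, against 76.9 ± 2.49 FPKM in control cells (log2 fold change -1.92, edgeR adjusted p = 2.84e-14). Acvrl1, the type I receptor ALK1, and Cd109, a co-receptor that restrains TGF-beta signalling, had log2 fold changes of -0.98 and -1.10. Fkbp1a, which keeps TGFBR1 inactive without ligand, fell to 106 ± 2.32 FPKM with miR-378a-3p, against 115 ± 2.86 FPKM in control cells (log2 fold change -0.22, and -0.13 with library totals in place of TMM). Tgfbrap1, a receptor-associated protein, rose by 0.57 on the log2 scale. The co-receptor gene Tgfbr3, singled out after its values were seen, averaged 0.00413 FPKM with miR-378a-3p and 0.00169 FPKM in control cells and was not tested. Pmepa1, which sequesters receptor-activated SMADs and was singled out likewise, was at 0.7084 FPKM in miR-378a-3p replicate 1, the library with the epithelial markers, and at 0 in the other 9 libraries.

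Of the other SMADs and nuclear partners 12 were higher and 9 lower of 27 tested (44.4% and 33.3%, median log2 fold change 0.06). Rbl1, the p107 protein that SMAD3 uses to repress Myc, rose to 15.4 ± 0.861 FPKM with miR-378a-3p, against 5.89 ± 0.62 FPKM in control cells (log2 fold change 1.30, edgeR adjusted p = 6.82e-11). Zeb2, a SMAD-interacting repressor, Zmiz1, a SMAD co-activator, and the SMAD partners Runx1 and Runx3 had log2 fold changes of -0.95, -0.81, -0.76 and -0.74. Among the SMADs of the list, chosen after their values were seen, Smad6, the inhibitory SMAD of the bone morphogenetic protein (BMP) branch, fell to 0.417 ± 0.0498 FPKM, against 1.19 ± 0.0826 FPKM in control cells (log2 fold change -1.59, edgeR adjusted p = 6.48e-08), while Smad7 rose. Smad1 and Smad5, the BMP transducers, had log2 fold changes of -0.23 and 0.25 (edgeR adjusted p = 0.00136 and 0.000328).

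Ubiquitin ligases, deubiquitinases and phosphatases of SMADs and receptors were called higher in 16 and lower in 4 of 27 tested genes (59.3% and 14.8%), with a median log2 fold change of 0.17. The deubiquitinases Usp7 and Usp9x, of which Usp9x acts on SMAD4, rose by 0.39 and 0.42 on the log2 scale, Skp1a, a subunit of SCF ubiquitin ligases, by 0.42 and Stub1, a chaperone-linked ligase that acts on SMAD3, by 0.40. Wwp1, a ligase that SMAD7 brings to TGFBR1, fell to 5.74 ± 0.244 FPKM with miR-378a-3p, against 11.6 ± 0.886 FPKM in control cells (log2 fold change -1.10, edgeR adjusted p = 5.36e-11). Smurf1 and Smurf2, ligases that also work with SMAD7 and were singled out after their values were seen, had log2 fold changes of 0.18 and 0.38 (edgeR adjusted p = 0.00814 and 1.05e-05).

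In the SMAD-independent branch 14 genes were higher and 8 lower of 27 tested (51.9% and 29.6%, median log2 fold change 0.14). The kinase genes Map2k3, upstream of p38, and Map2k2, upstream of ERK, rose by 0.86 and 0.74 on the log2 scale (edgeR adjusted p = 1.8e-11 and 2e-10). Mapk3, which encodes ERK1, the adaptor gene Grb2 and Mapkapk2, a kinase downstream of p38, had log2 fold changes of -0.75, -0.78 and -0.93. Map2k3 was at 26.7 ± 0.763 FPKM with miR-378a-3p and 13.8 ± 0.617 FPKM in control cells.

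**Figure D4:**
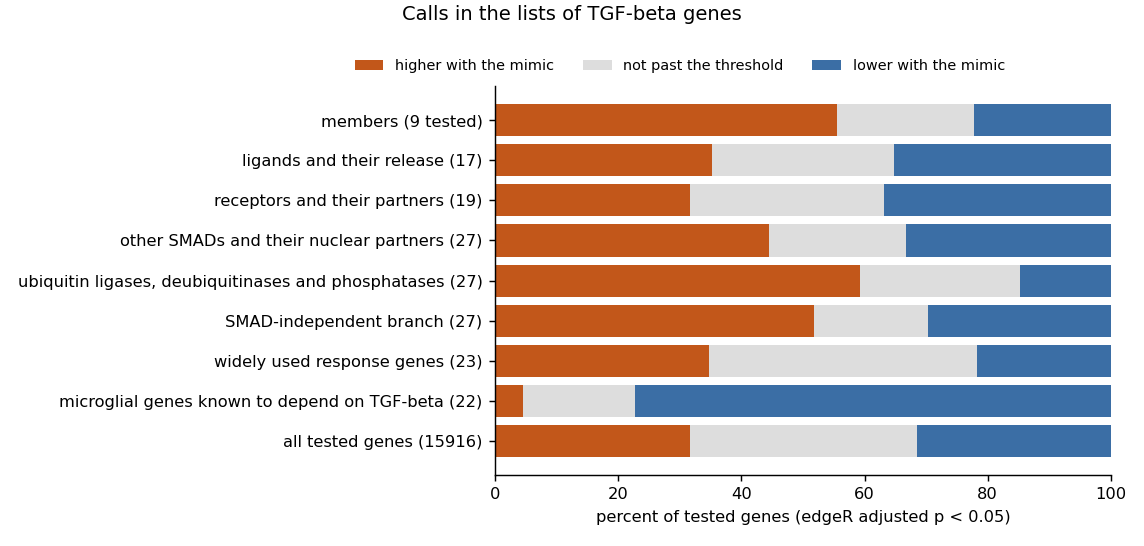
Percent of the tested genes of each list (rows, number tested in parentheses) called higher (orange), called lower (blue) or not past the edgeR threshold (grey) with the miR-378a-3p mimic, with the 10-gene list at the top and all tested genes at the bottom. Microglial genes known to depend on TGF-beta were mostly lower (77.3%) and ubiquitin ligases, deubiquitinases and phosphatases mostly higher (59.3%), while all tested genes split into 31.7% higher and 31.5% lower.

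Genes widely used to read out TGF-beta responses were called in both directions, 8 higher and 5 lower of 23 tested (34.8% and 21.7%). Of all tested genes 31.7% were higher and 31.5% lower. The median log2 fold change of the list was 0.22. The list mixes genes that TGF-beta induces, such as Junb, with genes that it lowers in many cells, such as Id2. Neither the split nor the median therefore measures a response to TGF-beta. Bhlhe40, a transcriptional repressor, fell to 15.2 ± 0.638 FPKM with miR-378a-3p, against 41.8 ± 0.878 FPKM in control cells, and Id2, an inhibitor of helix-loop-helix factors that TGF-beta lowers in many cells, to 3.55 ± 0.463 FPKM, against 13.9 ± 0.219 FPKM. Their log2 fold changes were -1.55 and -2.06 (edgeR adjusted p = 2.84e-14 and 9.75e-12). The cell cycle inhibitor Cdkn1a fell by 0.82 on the log2 scale, and Junb, an AP-1 subunit induced by TGF-beta, and Tgm2, transglutaminase 2, rose by 0.37 and 0.63. Several genes of the list, singled out after their values were seen, stood out in miR-378a-3p replicate 1, the library with the epithelial markers: Ccn1 was at 4.343, Fn1 at 3.611 and Ccn2 at 2.63 FPKM there and at most 0.05235 FPKM in any other library. Myc was at 2.602 FPKM in that library, at 0.01676 to 0.08709 FPKM in the other miR-378a-3p libraries and at 0.2363 to 0.536 FPKM in control libraries. Without replicate 1, 7 genes of the list were higher and 6 lower of 23 tested; Myc was then called lower (log2 fold change -3.32, edgeR adjusted p = 1.18e-05) and Timp1, a protease inhibitor, was no longer called higher (edgeR adjusted p = 0.134).

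Microglial genes known to depend on TGF-beta were mostly lower, 17 of 22 tested (77.3%, against 31.5% of all tested genes). Only 1, Golm1, was higher (4.55%, against 31.7%), and the median log2 fold change was -0.70. This list shares genes, among them Csf1r, Cx3cr1, C1qa, P2ry12 and Tmem119, with the microglia markers, of which 15 of 16 were lower. Several of these falls were known when the list was made, so their count is not independent evidence. Cx3cr1, the fractalkine receptor, fell to 0.475 ± 0.111 FPKM with miR-378a-3p, against 28.6 ± 1.84 FPKM in control cells (log2 fold change -6.00, edgeR adjusted p = 5.55e-15). Csf1r, the receptor microglia need to survive, fell to 35.2 ± 1.7 FPKM, against 58.9 ± 1.13 FPKM in control cells, and Selplg, a selectin ligand, to 14.1 ± 0.757 FPKM, against 21.8 ± 0.998 FPKM. Their log2 fold changes were -0.84 and -0.72.

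**Figure D5:**
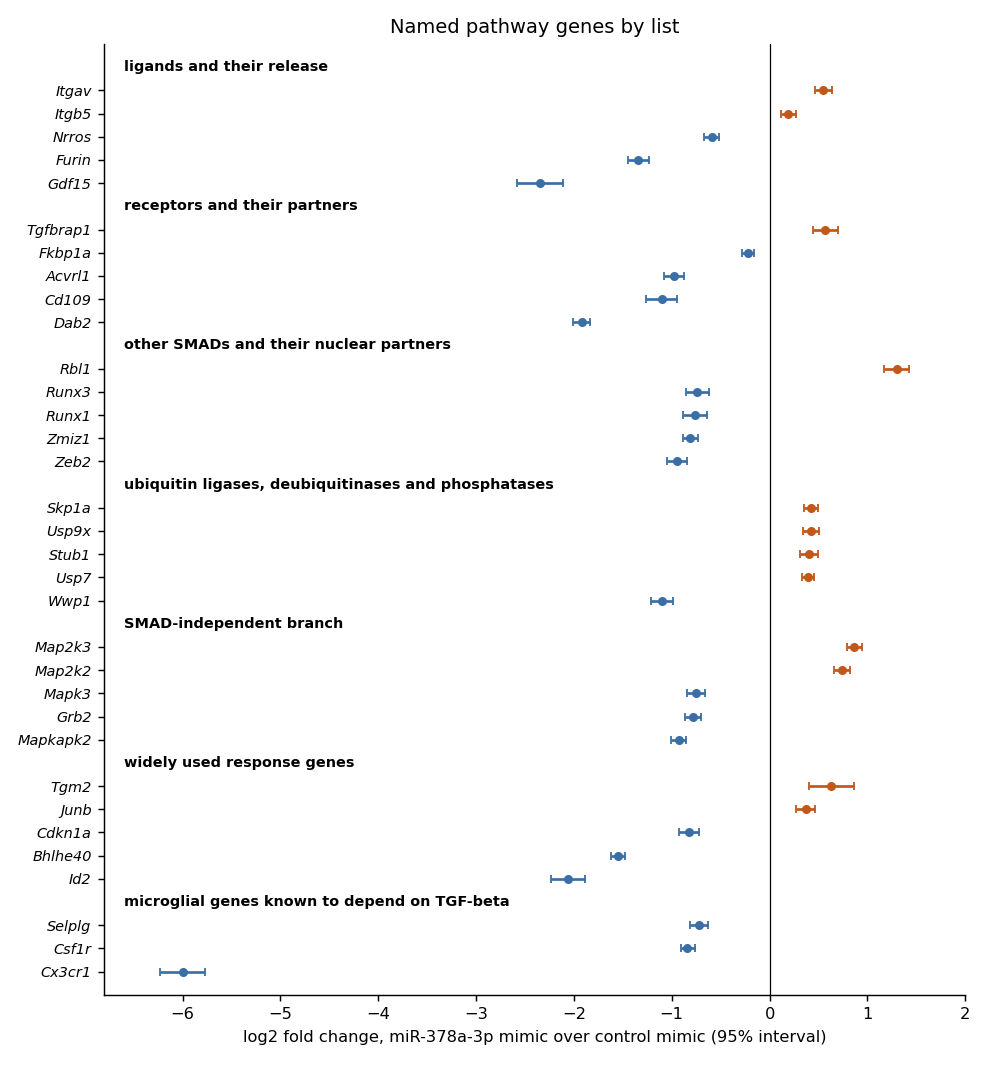
Log2 fold change, miR-378a-3p mimic over control mimic (horizontal axis), from edgeR with 95% intervals, of the named genes of each list, with rises in orange and falls in blue. Among the genes shown, the microglial ones (Cx3cr1, Csf1r and Selplg) lie below 0, with Cx3cr1 at -6.00, and Rbl1 at 1.30 is the largest rise. Genes of the lists that are not shown include larger rises.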

How the data were processed

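Poly(A) RNA of 10 libraries was sequenced as paired reads from strand-marked libraries, per the labels' protocols. The table the authors deposited gives, for each gene, an estimated count (whole numbers, used as deposited) and an FPKM per library, as its column names state. The submitters' processing notes list HISAT2 2.2.1, cutadapt 1.9, edgeR, DESeq2, StringTie 2.1.6 and the build GRCm39, with no order. The deposited coordinates equal those of GENCODE M21, a GRCm38 annotation, for 87.8% of 28163 shared genes and are treated here as GRCm38. Low counts piled up around 4 (on average 485.6 genes per library at 3, 933.5 at 4 and 305.8 at 5), from which the worth of a read pair was read as about 4. All 20 value columns matched a library by name. Use of strand in the counting is not given in the sources used here. Of the 10 genes only Smad4 overlaps another in the table, Gm50126 on the opposite strand, with a mean of 0.7 counts.

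Groups came from the treatment label. In edgeR 4.0.16 (R 4.3.3), filterByExpr chose the genes, TMM set the scaling, and glmQLFit with glmQLFTest gave the test, with no covariate. FPKM keep the authors' own scaling, so a ratio of FPKM means can differ from the fitted fold change. Fold changes are miR-378a-3p over control, the SE is the log2 fold change divided by the square root of F, and the p-values were adjusted by Benjamini-Hochberg over all 15916 tested genes. Differences of log2 FPKM within libraries were compared by exact permutation of the 252 arrangements. The members, lists and tests were chosen with earlier results of these data known. The named genes are the 10 members and, from each pathway list, the 5 genes with the smallest p and a mean of at least 1 FPKM, less any that are counted in a list but not reported here, which were not replaced. Other genes of the lists are said to be singled out, or to be chosen or named after their values were seen. Cd68, P2ry12, Tmem119, C1qa, Gfap, Flt1, Aldoc, Krt18, Krt8, Golm1 and Timp1 are also outside this rule and are not marked so. Alternatives were other scalings, filters and fits, DESeq2 1.42.0, limma 3.58.1 on FPKM, the replicate number as a block and leaving out a library in turn. No libraries were treated as duplicates: within groups, the chi-square statistic over its degrees of freedom was at least 2.67. Floors cover counting error only, as the labels name no molecular identifiers. Sequences came from RefSeq tables on GRCm38.p6.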

Additional observations from a re-analysis of the deposited data

Results flagged for a closer look

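Of 86 groups of 5 libraries examined for the members and the named pathway genes, 3 had a library far from the other 4, where chance flags about 1 in 20. Tgfb1 was at 28.0 FPKM in miR-378a-3p replicate 3 and at 29.9 to 30.6 FPKM in the other miR-378a-3p libraries. Ski was at 11.6 FPKM in miR-378a-3p replicate 2 and at 10.79 to 10.96 FPKM in the others. Junb was at 58.8 FPKM in miR-378a-3p replicate 3, against 64.7 to 66.6 FPKM in the others. For Tgfb1 and Ski the library lay on the same side of all control libraries as the rest of its group.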

How the results depend on the processing

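Across 21 alternatives the calls of Tgfb1, Tgfbr1, Tgfbr2, Smad7, Ski and Skil kept their direction and their side of the threshold, and 5 members were called higher in each. The 33 named pathway genes lost none of 693 calls. The number of members called lower was 1 in place of 2 with library totals, with limma on log2(FPKM + 1) and with limma on log2(FPKM + 0.1), and 1 to 2 with a library left out, in each case through Smad3; the cause was not tested. The log2 fold changes of Smad2 and Smad4, which were not called, turned to -0.02 and -0.03 with upper-quartile factors and to -0.0016 and -0.0083 with only genes whose mean FPKM was 1 or more. They ran from -0.04 to 0.03 and from -0.04 to 0.02 with a library left out. With library totals they were 0.09 and 0.08, and with limma on log2(FPKM + 0.1) both were 0.1 (limma adjusted p = 0.156 and 0.0906). The Smad2 minus Smad3 difference was 0.14 with log2(FPKM + 1) and 0.14 to 0.24 with a library left out, and was past the threshold in 3 of 12 alternatives. The Ski minus Skil difference was -0.19 with log2(FPKM + 1) and no longer past it. Same-numbered libraries of the groups showed little shared variation (correlations of -0.009 to 0.062, with 2 of 5 closest to their own number). The labels do not state whether they shared a culture or a preparation, and so few libraries cannot settle it. With the replicate number as a block, 4879 genes were higher and 4889 lower, in place of 5050 and 5006. Of all calls 50.2% were higher, 58.4% with library totals and 59.6% with limma on log2(FPKM + 1). With the block, 5 members were higher and 2 lower, as without it. Depth limits Tgfbi, which had at most 12 counts in a library, and Smad7.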

Other observations

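The authors' table annotates 81 genes with the KEGG term for TGF-beta signalling, 7 of them among the 10 genes described above. Of the other 74 genes, 49 were tested, and 26 were higher and 11 lower with miR-378a-3p (53.1% and 22.4%), with a median log2 fold change of 0.24. Of all tested genes 31.7% were higher and 31.5% lower, with a median of -0.002. This set was looked at after the other lists had been seen.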
